A study of Mus musculus with 26 samples.

Results

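The NLRP4, NLRP9 and NLRP14 genes of the mouse oocyte were followed across oocytes at the germinal vesicle (GV) stage, grown to full size and still in the first meiotic arrest, carrying deletions or mutations of Tet3 and Dnmt3a. The members were chosen by name: Nlrp4a, Nlrp4b, Nlrp4c, Nlrp4e, Nlrp4f, Nlrp9a, Nlrp9b, Nlrp9c and Nlrp14. All 9 had a row among the 24450 gene features of the count table, and all 9 passed the filter on low counts. Nlrp4d and Nlrp4g were not analysed here.

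Each library was made from polyadenylated RNA of 10 pooled GV oocytes. DKO oocytes carried floxed Dnmt3a and a floxed stretch of Tet3 that the labels call LCD (Dnmt3af/f, Tet3 LCDf/f; Zp3-Cre; 2 libraries), and HD mutant oocytes carried Tet3 LCD HD Mutf/f with Zp3-Cre (5 libraries), where HD is not defined in the sources used here. LCD KO oocytes were Tet3 LCDf/f; Zp3-Cre (7 libraries), Dnmt3a KO oocytes were Dnmt3af/f; Zp3-Cre (2 libraries), and those labelled Tet3 KO were Tet3f/f; Zp3-Cre (2 libraries). WT oocytes were Tet3 LCDf/f without Cre (6 libraries), so every mutant group carried Zp3-Cre, which is driven by a zona pellucida promoter in growing oocytes, and WT did not. A further 2 libraries, given the genotype Tet1,2,3f/f; Zp3-Cre (TKO), held the same values, gene for gene, as those labelled Tet3 KO and were counted once, which left 24 distinct libraries. The labels put 22 of these into 3 batches. Batch 1 held LCD KO 1 to 3 and WT 1 to 3, batch 2 held HD mutant 1 to 3, LCD KO 4 and 5 and WT 4, and batch 3 held LCD KO 6 and 7, the Dnmt3a KO and DKO libraries, those labelled Tet3 KO, and WT 5 and 6. HD mutant 4 and 5 had no stated batch. Sources used here do not give the age of the females.

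NLRP proteins belong to the NOD-like receptor family, with a pyrin domain, a nucleotide-binding NACHT domain and leucine-rich repeats. Some members, such as Nlrp3, nucleate inflammasomes in immune cells, but a set of them is transcribed chiefly in oocytes, and in the mouse this set has grown by duplication into the Nlrp4 and Nlrp9 copies. Oocyte NLRP proteins are stored as maternal products for the early embryo: Nlrp5 (Mater) and Nlrp2 belong to the subcortical maternal complex beneath the oocyte membrane, and Nlrp14 is a maternal-effect gene whose protein has been linked to UHRF1 and to the cytoplasmic lattices.

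The libraries held 1838824 to 7833087 counts, with the highest totals in batch 2. Tet3 fell in LCD KO oocytes, with 43.8 to 59.0 CPM (counts scaled to library size and TMM factor) in LCD KO against 183 to 266 CPM in WT within batch 1, and with a fitted log2 fold change of −1.78 ± 0.21 (SE). It fell likewise in HD mutant oocytes (−1.86 ± 0.33) and in DKO oocytes (−1.73 ± 0.36), and Dnmt3a fell in Dnmt3a KO (−1.53 ± 0.20) and DKO oocytes (−1.81 ± 0.20). The libraries labelled Tet3 KO went against their label: they held 262 and 357 CPM of Tet3, against 158 and 219 CPM in WT of the same batch, and 143 and 105 CPM of Dnmt3a, against 310 and 347 CPM in WT. All 10 oocyte markers were detected in every group. The summed level of 11 granulosa and cumulus cell markers ran from 45.6 to 322 CPM in LCD KO and from 32.4 to 90.0 CPM in WT. Inha and Cyp19a1 made up most of the high sums, with up to 292 CPM of Inha and 20.0 to 35.8 CPM of Cyp19a1 over all libraries. No other marker of that list exceeded 5.32 CPM in any library. Markers of theca and stroma, and of blood and immune cells, summed to at most 6.01 CPM in any library, and Adgre1 had no count in any group.

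The 9 genes covered a wide range of levels. Summed, they reached 6507 to 13281 CPM in LCD KO and 8456 to 21354 CPM in WT. Nlrp14 and Nlrp4f made up most of it. Levels of different genes were compared per kilobase of merged exon length (GENCODE vM21). On that scale Nlrp14 stood first in WT, at 2319 ± 1013 CPM per kb (SD, n = 6), followed by Nlrp4f at 1042 ± 525.8. A middle group held Nlrp9b (166 ± 25.5), Nlrp9c (135 ± 29.9), Nlrp4b (128 ± 22.7), Nlrp4a (128 ± 16.1) and Nlrp9a (99.4 ± 23.3). Nlrp4e (28.4 ± 7.36) and Nlrp4c (8.24 ± 3.37) were lowest.

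Some neighbours in that order were apart in every WT library and some were not. Nlrp14 exceeded Nlrp4f, Nlrp4f exceeded Nlrp9b, Nlrp9a exceeded Nlrp4e and Nlrp4e exceeded Nlrp4c in 6 of 6 WT libraries. Within the middle group Nlrp9b exceeded Nlrp9c, and Nlrp4a exceeded Nlrp9a, in 5 of 6 libraries. Nlrp9c exceeded Nlrp4b in 3 of 6 libraries and Nlrp4b exceeded Nlrp4a in 2 of 6, so the order of Nlrp9c, Nlrp4b and Nlrp4a was not settled. Per kilobase of coding sequence Nlrp9c moved ahead of Nlrp9b, with 267 CPM per coding kb against 206 for Nlrp9b, the annotated exons of Nlrp9c being 5935 bases long with 3012 bases of coding sequence. The first 2 and the last 2 places were the same in every group and on both scales.

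Several members differed more between batches than between genotypes. In WT, Nlrp14 measured 11029 ± 870 CPM in batch 1 (SD, n = 3), 8511 CPM in the single library of batch 2, and 3695 and 3921 CPM in batch 3. Nlrp4f measured 5860 ± 368 CPM in WT of batch 1, 2609 CPM in batch 2, and 2232 and 1765 CPM in batch 3. Without TMM factors the WT means of Nlrp14 were 8216, 8746 and 4162 CPM in batches 1, 2 and 3. The order of batches 1 and 2 for Nlrp14 thus depended on these factors. For Nlrp4f the means without them were 4366, 2681 and 2171 CPM, in the same order as with them. Nlrp9c and Nlrp9a were lowest in batch 2, where WT had 479 and 194 CPM of them. WT of batch 1 had 879 ± 37.6 and 365 ± 32.1 CPM, and WT of batch 3 had 968 and 733 CPM of Nlrp9c and 426 and 361 CPM of Nlrp9a. The normalisation factors of batch 1 lay between 0.735 and 0.761 and those of batches 2 and 3 between 1.03 and 1.20, so batch was a term of the fits below unless a fit without it is named.

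**Figure D1:**
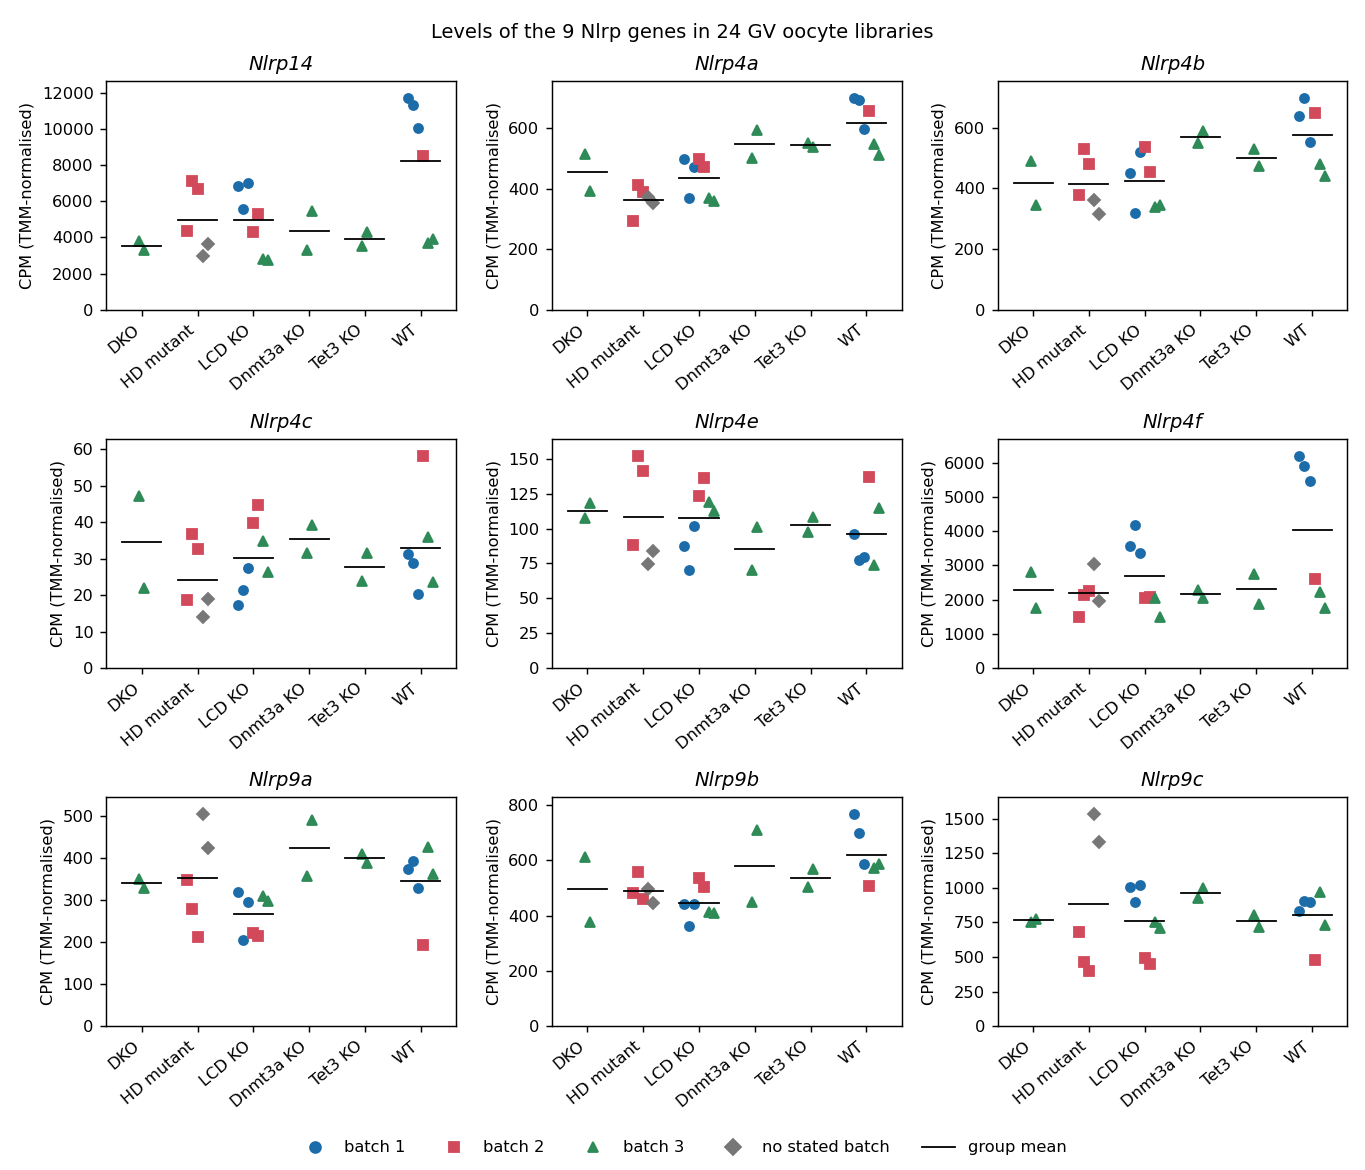
Level of each of the 9 genes in 24 GV oocyte libraries. Each point is 1 library in TMM-normalised CPM on a linear axis from 0, shaped and coloured by batch, and the bar is the group mean. The blue batch 1 points of Nlrp14 and Nlrp4f sit highest in both LCD KO and WT, Nlrp14 in LCD KO lies below WT of the same colour in every batch, and HD mutant 4 and 5 (grey) hold the highest Nlrp9c values, 1532 and 1330 CPM.

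In LCD KO oocytes 5 of the 9 genes were lower than in WT. Nlrp14, Nlrp4a, Nlrp9b, Nlrp4b and Nlrp4f fell, by 0.44 to 0.68 on the log2 scale, none rose, and Nlrp9a, Nlrp4c, Nlrp4e and Nlrp9c did not pass the test (edgeR quasi-likelihood F test over 11794 genes, Benjamini-Hochberg adjusted p below 0.05, with batch as a term). Among all tested genes 18.3% passed in this comparison, 9.44% as lower and 8.89% as higher, so many genes changed in LCD KO oocytes besides these. The median log2 fold change was −0.44 over the 9 members and −0.02 over all tested genes. A lower CPM of a gene in a pool is a smaller share of the counts. Fewer oocytes holding its RNA and a smaller share of it in each oocyte cannot be told apart here. Sources used here do not say whether the pools came from separate females, so the p-values measure the spread between pools.

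Nlrp14, the maternal-effect member, had the lowest fitted change, although in batch 3 alone Nlrp4a (−0.55) and Nlrp9b (−0.50) lay below it (−0.46). LCD KO libraries held 6859, 5597 and 7035 CPM in batch 1, 4278 and 5295 CPM in batch 2, and 2789 and 2752 CPM in batch 3. WT libraries held 11711, 11326 and 10049 CPM in batch 1, 8511 CPM in batch 2, and 3695 and 3921 CPM in batch 3. Within each batch every LCD KO library lay below every WT library, although the pooled groups overlapped because WT of batch 3 lay below LCD KO of batch 1. The fitted log2 fold change was −0.68 ± 0.13 (SE; 95% interval −0.95 to −0.41; adjusted p = 0.000690 by edgeR).

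Nlrp4a had 498, 370.2 and 471 CPM in LCD KO of batch 1, 499 and 472 CPM in batch 2, and 369 and 358 CPM in batch 3. WT had 699, 693 and 598 CPM in batch 1, 657 CPM in batch 2, and 548 and 512 CPM in batch 3. It was the only member whose 7 LCD KO libraries all lay below all 6 WT libraries with batches pooled. The share of all genes with that pooled arrangement was not computed. The log2 fold change was −0.53 ± 0.11 (adjusted p = 0.00140 by edgeR). Nlrp4b, a second copy of unknown individual role, had 318 to 519 CPM in LCD KO and 552 to 698 CPM in WT of batch 1. In batch 2 it had 537 and 454 CPM in LCD KO against 649 CPM in WT, and in batch 3 it had 339.8 and 345 CPM in LCD KO against 482 and 439.8 CPM in WT. Its groups too were separate within each batch, with a log2 fold change of −0.48 ± 0.12 (adjusted p = 0.00739 by edgeR). Nlrp14, Nlrp4a and Nlrp4b were the members with every LCD KO library below every WT library in each of the 3 batches, an arrangement that 5.66% of all tested genes shared, and 5.87% showed the opposite arrangement.

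Nlrp4a and Nlrp4b moved most alike of all pairs, and the stretches before their annotated starts could be aligned over 222 bases with 80.2% identity. They are shown because they lie before the pair of members whose levels ran closest together. The sequences are from RefSeq on GRCm38.p6, the plus strand of chromosome 7, chr7:26435370-26435607 before the second annotated start of Nlrp4a and chr7:10687559-10687782 before the first annotated start of Nlrp4b. Capitals mark E-boxes, the sequence CANNTG that basic helix-loop-helix factors such as FIGLA bind.
Nlrp4a: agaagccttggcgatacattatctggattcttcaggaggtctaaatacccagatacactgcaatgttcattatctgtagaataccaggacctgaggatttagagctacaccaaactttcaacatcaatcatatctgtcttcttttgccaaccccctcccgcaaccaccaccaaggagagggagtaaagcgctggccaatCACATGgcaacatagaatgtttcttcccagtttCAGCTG
Nlrp4b: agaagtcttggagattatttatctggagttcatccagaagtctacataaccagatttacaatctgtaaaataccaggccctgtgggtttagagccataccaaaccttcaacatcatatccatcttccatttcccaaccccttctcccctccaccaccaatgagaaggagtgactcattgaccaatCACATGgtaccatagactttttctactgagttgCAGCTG
Each stretch held the same pair of E-boxes in the same order, CACATG followed 33 bases on by CAGCTG. Nlrp4c, which did not pass the test in LCD KO, held the same pair 32 bases apart in its promoter.

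Nlrp4f, whose protein is associated with the subcortical maternal complex in mouse oocytes, had 3562, 4174 and 3371 CPM in LCD KO and 6202, 5907 and 5472 CPM in WT of batch 1. In batch 2 it had 2049.9 and 2079 CPM in LCD KO against 2609 CPM in WT, and in batch 3 it had 2037 and 1494 CPM in LCD KO against 2232 and 1765 CPM in WT. The groups were separate in batches 1 and 2 and overlapped in batch 3. The log2 fold change was −0.44 ± 0.14 (adjusted p = 0.0255 by edgeR), and the gene no longer passed when LCD KO 1, LCD KO 3, WT 1 or WT 2 was left out, with an adjusted p of up to 0.0660.

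Nlrp4c and Nlrp4e, the pair with the most similar coding sequences, did not pass the test. Nlrp4c ran from 17.4 to 44.8 CPM with a median of 27.6 CPM in LCD KO and from 20.3 to 58.2 CPM with a median of 30.1 CPM in WT (log2 fold change −0.22 ± 0.19; 95% interval −0.61 to 0.17). Nlrp4e, whose knockdown blocks preimplantation development in the mouse, ran from 70.4 to 137 CPM in LCD KO and from 74.2 to 137 CPM in WT. Its log2 fold change was 0.10 ± 0.14 (95% interval −0.19 to 0.39), and the groups overlapped in batches 1 and 3. Of the 50-base stretches of Nlrp4e transcripts 36.7% also occur in transcripts of another gene, and 10.7% of those of Nlrp4c do. The share was 7.79% for Nlrp9b, 6.07% for Nlrp9a, 5.95% for Nlrp4f, 2.63% for Nlrp4a and 2.61% for Nlrp9c. Nlrp14 and Nlrp4b share no such stretch. Sources used here do not say how multiply aligned reads were counted, so the counts of all members with shared stretches are uncertain.

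Of the Nlrp9 copies Nlrp9b passed the test and Nlrp9a and Nlrp9c did not, and the differences between the copies were not tested. Nlrp9b, which also serves an inflammasome in the mouse intestine, had 441, 362 and 443 CPM in LCD KO and 766, 698 and 585 CPM in WT of batch 1. In batch 3 it had 412 and 410.3 CPM in LCD KO against 574 and 587 CPM in WT, whereas in batch 2 LCD KO had 535 and 503 CPM around a WT value of 505 CPM. The log2 fold change was −0.49 ± 0.14 (adjusted p = 0.0125 by edgeR), with a separation in batches 1 and 3 and an overlap in batch 2. Annotated Nlrp9b exons overlap those of Gm18877 on the same strand, so reads there could belong to either.

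Nlrp9a had 319, 204 and 295 CPM in LCD KO of batch 1, against 373, 392 and 329.7 CPM in WT. In batch 3 it had 309 and 299 CPM in LCD KO against 426 and 361 CPM in WT, and in batch 2 it had 222 and 213 CPM in LCD KO against 194 CPM in WT. LCD KO was thus lower in batches 1 and 3 and higher in batch 2, and the fitted log2 fold change of −0.28 ± 0.13 did not pass (adjusted p = 0.141 by edgeR). Without WT 4, the single WT library of batch 2, the change was −0.40 and passed (adjusted p = 0.0495). Nlrp9c had 446 to 1019 CPM in LCD KO and 479 to 968 CPM in WT, overlapping in every batch, with a log2 fold change of −0.0039 ± 0.12 (95% interval −0.25 to 0.24).

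Nlrp9a and Nlrp9c lie on opposite strands of chromosome 7 with Nlrp4a between them, and the stretch before their starts is nearly the same. It is printed because these copies share it while their fitted changes in LCD KO were −0.28 and −0.0039. The RefSeq sequences on GRCm38.p6 are chr7:26534866-26535022 on the plus strand, ending 1 base before the Nlrp9a start, and chr7:26403745-26403901 on the minus strand, ending 45 bases before the Nlrp9c start. Capitals mark the 3 of 157 bases at which they differ (98.1% identity).
Nlrp9a: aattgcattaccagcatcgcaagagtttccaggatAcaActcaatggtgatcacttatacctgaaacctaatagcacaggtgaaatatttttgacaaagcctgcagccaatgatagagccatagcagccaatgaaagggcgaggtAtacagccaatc
Nlrp9c: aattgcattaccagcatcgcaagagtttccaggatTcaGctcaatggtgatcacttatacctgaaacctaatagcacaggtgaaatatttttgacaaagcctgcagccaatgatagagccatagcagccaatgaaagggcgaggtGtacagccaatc
Each stretch held 1 E-box, and the letters of that E-box are the same in both.

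**Figure D2:**
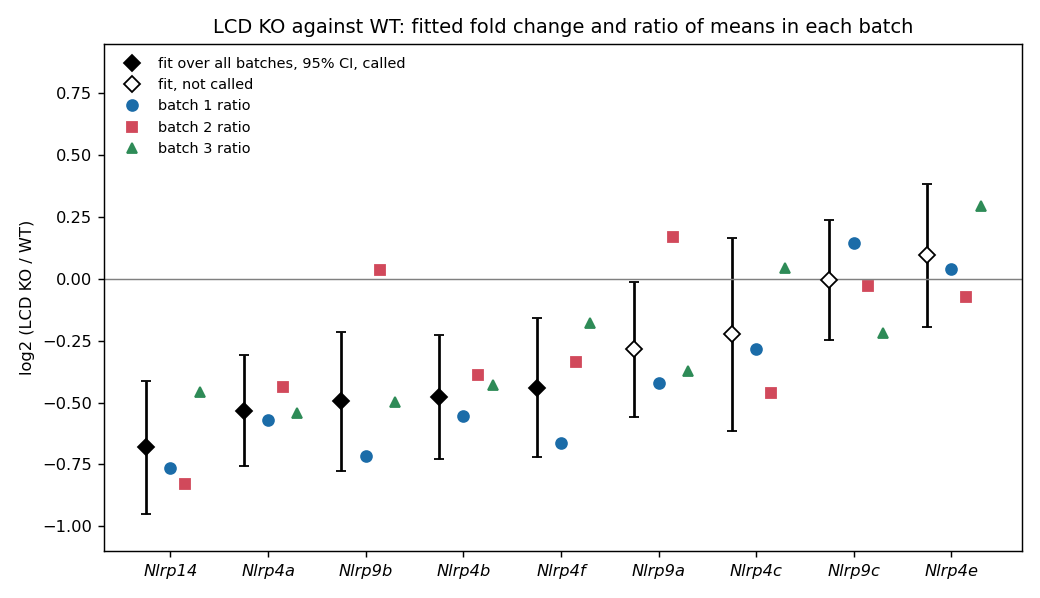
LCD KO against WT for the 9 genes, ordered by fitted change. Diamonds are log2 fold changes of the fit over all batches with 95% intervals, filled where the adjusted p was below 0.05, and coloured points are log2 ratios of group means within each batch. Nlrp14, Nlrp4a, Nlrp4b and Nlrp4f lie below 0 in all 3 batches, and Nlrp9b and Nlrp9a lie above 0 in batch 2 (0.04 and 0.17).

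These calls rested on the batch term and on batch 1. With batches 2 and 3 alone 0 of 9 members passed, with changes of −0.61 for Nlrp14 (adjusted p = 0.104), −0.50 for Nlrp4a (0.0950), −0.41 for Nlrp4b (0.195), −0.29 for Nlrp9b (0.488) and −0.24 for Nlrp4f (0.595), and without a batch term 0 passed. Of all genes 3.07% passed with batches 2 and 3 alone and 4.61% without a batch term, against 18.3% in the fit reported, so 0 of 9 lay near the share of all genes. The highest summed level of the granulosa and cumulus list belonged to LCD KO 2, and without that library the same 5 members passed.

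In HD mutant oocytes Nlrp4a was the single member that passed. It had 292, 413 and 388 CPM in HD mutant 1 to 3, against 657 CPM in the WT library of the same batch, and its log2 fold change was −0.91 ± 0.18 (95% interval −1.27 to −0.55; adjusted p = 0.00184 by edgeR). Of all tested genes 7.83% passed in this comparison, 3.75% as lower. At an unadjusted p below 0.05 there were 4 members, with 24.8% of all genes, and DESeq2 called 1, with 10.3% of all genes. The HD mutant libraries of the fit share batch 2 with a single WT library, and without a batch term Nlrp4a missed the threshold (−0.76, adjusted p = 0.0523). It passed without a batch term when HD mutant 4 and 5 were added (−0.77, adjusted p = 0.0152 by edgeR), as did 3.42% of all genes. Neither of these fits accounted for batch.

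The other members of the HD mutant group had wider intervals. Nlrp4c had 18.6, 36.8 and 32.7 CPM in HD mutant 1 to 3 against 58.2 CPM in WT 4 (log2 fold change −0.83 ± 0.29; adjusted p = 0.0706 by edgeR). It passed when HD mutant 2 was left out (adjusted p = 0.0467), and over 9 single omissions its adjusted p by edgeR reached 0.281. Nlrp4b had 379.9, 529 and 481 CPM against 649 CPM (−0.54 ± 0.19; adjusted p = 0.0815). Nlrp14 had 4336, 7113 and 6689.9 CPM in HD mutant 1 to 3 against 8511 CPM in WT 4, all below it, with a fitted change of −0.39 ± 0.21 (95% interval −0.82 to 0.04). The remaining members ran from −0.47 for Nlrp4f to 0.21 for Nlrp9a. HD mutant 4 and 5, which entered no fit with a batch term, had 371 and 351 CPM of Nlrp4a and 2981 and 3651 CPM of Nlrp14.

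Set directly against LCD KO, HD mutant had 0 of 9 members past the threshold by edgeR and 0 by DESeq2. At an unadjusted p below 0.05 there were 3 members (12.3% of all genes), and 2.08% of all tested genes passed by edgeR. Nlrp4a was at −0.38 (95% interval −0.72 to −0.05; adjusted p = 0.322), Nlrp4c at −0.60 (−1.15 to −0.05; adjusted p = 0.348) and Nlrp9a at 0.50 (0.10 to 0.90; adjusted p = 0.255). The call of Nlrp14 in LCD KO and its miss in HD mutant therefore do not show a difference between the mutants: that difference was 0.29 ± 0.20 (95% interval −0.12 to 0.69).

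With loss of Dnmt3a, which methylates DNA anew during oocyte growth, 0 of 9 members passed the threshold. Log2 fold changes of Dnmt3a KO against WT ran from −0.24 for Nlrp4e to 0.28 for Nlrp4b, 0 members had an unadjusted p below 0.05 by edgeR, DESeq2 called 0, and 0.755% of all tested genes passed. Nlrp14 had 3291 and 5449 CPM in Dnmt3a KO against 3695 and 3921 CPM in WT of the same batch, with Dnmt3a KO on either side of WT (0.08; 95% interval −0.36 to 0.52). Nlrp4a had 503 and 593 CPM in Dnmt3a KO against 548 and 512 CPM in WT (0.05; −0.31 to 0.42). The widest interval was that of Nlrp4c, −0.50 to 0.76.

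With loss of both Dnmt3a and the LCD stretch of Tet3, the DKO again had 0 of 9 members past the threshold against WT, where 3.79% of all genes passed. The changes ranged from −0.23 to 0.16, with 0 members at an unadjusted p below 0.05 and 0 by DESeq2. The DKO libraries held 3799 and 3277 CPM of Nlrp14, against 3695 and 3921 CPM in WT of batch 3. They held 514 and 393 CPM of Nlrp4a against 548 and 512 CPM in WT. Nlrp14 changed by −0.22 (95% interval −0.66 to 0.22) and Nlrp4a by −0.22 (−0.59 to 0.15), and both intervals hold 0 and overlap those of LCD KO against WT.

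Set against the single losses, the DKO differed in no member by the adjusted p. Against Dnmt3a KO, 0 members passed by edgeR, 0 had an unadjusted p below 0.05 and DESeq2 called 0, with 1.99% of all genes past the threshold. Nlrp4b came nearest, with 491 and 347 CPM in DKO against 551 and 589.6 CPM in Dnmt3a KO (−0.44; 95% interval −0.89 to 0.0026). Against LCD KO, 0 members passed by edgeR, 2 had an unadjusted p below 0.05 (7.72% of all genes) and DESeq2 called 0, with 0.314% of all genes past the threshold. Those 2 were Nlrp4f (0.50, 95% interval 0.05 to 0.94, adjusted p = 0.565 by edgeR) and Nlrp14 (0.46, 0.03 to 0.89, adjusted p = 0.586). Nlrp14 measured 3799 and 3277 CPM in DKO against 2789 and 2752 CPM in LCD KO of the same batch. Nlrp4f measured 2806 and 1759 CPM in DKO against 2037 and 1494 CPM in LCD KO of that batch, so its groups overlapped.

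The interaction, which asks whether the LCD loss acted differently with and without Dnmt3a, passed for 0 of 9 members by edgeR, with 0 at an unadjusted p below 0.05 and 0 by DESeq2, and for 0.0678% of all genes. It ran from −0.32 for Nlrp9c to 0.52 for Nlrp4f, and the intervals of Nlrp14 (−0.17 to 0.93) and Nlrp4a (−0.20 to 0.72) left room for a change as large as that of LCD KO. The DKO comparisons share their LCD KO, Dnmt3a KO and WT libraries with those above.

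The libraries labelled Tet3 KO, whose Tet3 was not lowered, had 0 of 9 members past the threshold against WT by edgeR, with 0 at an unadjusted p below 0.05 and 0 by DESeq2, and 1.37% of all genes passed. Log2 fold changes ran from −0.24 for Nlrp4c to 0.10 for Nlrp4b. Nlrp14 had 3526 and 4297 CPM in these libraries against 3695 and 3921 CPM in WT of batch 3 (−0.08; 95% interval −0.52 to 0.36). Nlrp4a had 552 and 538 CPM against 548 and 512 CPM in WT.

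**Figure D3:**
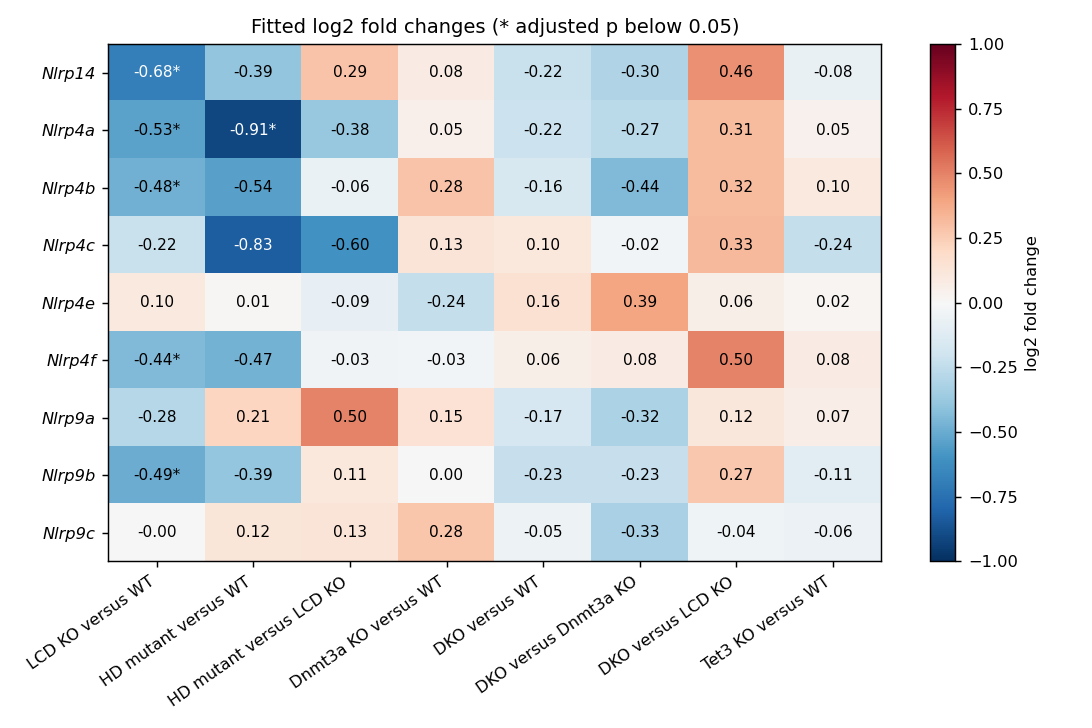
Fitted log2 fold changes of the 9 genes (rows) in 8 comparisons (columns), first-named group over second. An asterisk marks an adjusted p below 0.05. The asterisks stand in the column LCD KO versus WT (5 genes) and at Nlrp4a in HD mutant versus WT (−0.91), and the columns of Dnmt3a KO and Tet3 KO lie between −0.24 and 0.28.

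Across the 22 libraries with a stated batch the members fell into an alike set and a few that ran apart, with log2 CPM centred within each batch. These correlations share libraries, depth and the group differences above, and are given as a description. Nlrp4a and Nlrp4b had the highest Pearson r, 0.91, and Nlrp14 had r of 0.77, 0.79 and 0.77 with Nlrp4a, Nlrp4b and Nlrp9b. Nlrp4f followed the Nlrp4a level with r = 0.70. Nlrp4e had r between −0.04 and 0.25 with the other Nlrp4 copies, and −0.68 with Nlrp9c. Nlrp9a had r of 0.68 with Nlrp9b and 0.54 with Nlrp9c, while Nlrp9b and Nlrp9c had 0.04.

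Among the Nlrp4 copies the pair most alike in sequence was not the pair most alike in level. Coding sequences of Nlrp4c and Nlrp4e were 93.9% identical, the highest of all pairs, with r = 0.25. Nlrp4a and Nlrp4b were 78.4% identical, the lowest among Nlrp4 copies, with r = 0.91. The low counts of Nlrp4c and the stretches Nlrp4e shares with other genes limit what the r of that pair can show. Nlrp9a and Nlrp9c were 87.7% identical with r = 0.54, Nlrp9a and Nlrp9b 84.2% with r = 0.68, and Nlrp9b and Nlrp9c 83.2% with r = 0.04. Between clades the identity was 61.0% to 65.9%, with r from −0.68 (Nlrp4e with Nlrp9c) to 0.79 (Nlrp4b with Nlrp14).

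**Figure D4:**
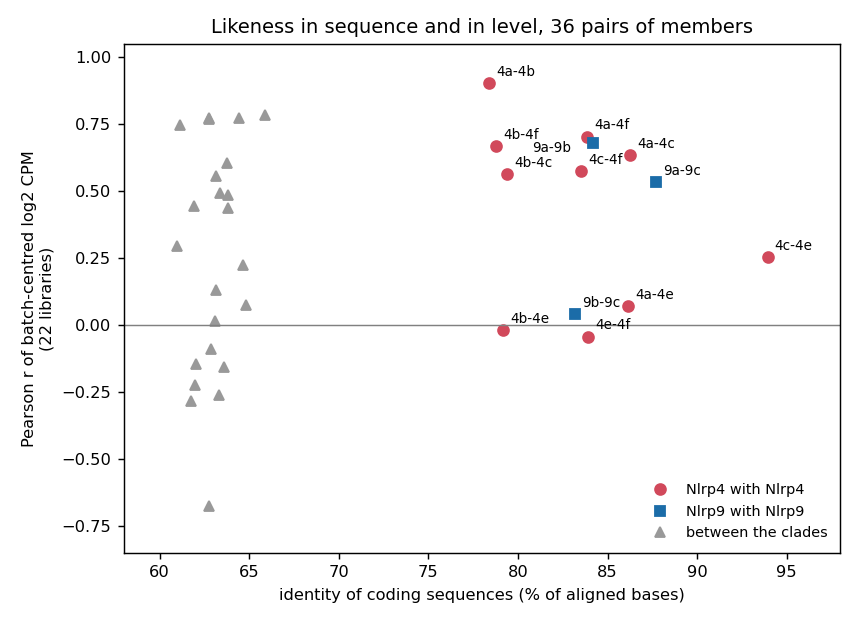
Coding sequence identity (x axis, percent of aligned bases) against Pearson r of batch-centred log2 CPM over 22 libraries (y axis) for each pair of members, coloured by clade. Pairs within Nlrp4 span r from −0.04 to 0.91 at identities of 78.4% to 93.9%, and the pair Nlrp4a and Nlrp4b is highest.

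Outside the family, the genes whose batch-centred level was most like that of Nlrp14 were Arid1a (r = 0.91), B4galt6 (0.90), Psme4 (0.89), Hectd2 (0.89) and Foxo1 (0.87), over the same 22 libraries. Those most like the mean of the members were Fam84b (0.91), Hif1a (0.90), Arid1a (0.89), Itga6 (0.89) and Bnc1 (0.89). None of these stayed among the best 5 when batches were not centred.

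Known partners of the oocyte NLRP proteins also changed in LCD KO. Of 8 genes of the subcortical maternal complex and the cytoplasmic lattices, 4 fell in LCD KO against WT and 0 rose, with a median of −0.40: Tle6 (−0.76), a scaffold of the complex, Khdc3 (−0.64), Nlrp2 (−0.39) and Padi6 (−0.80), needed for the lattices. Of all tested genes 9.44% fell and 8.89% rose in this comparison. Calls of this list were not examined without batch 1 or without a batch term. Ooep, another subunit of the complex, fell by 1.15 in the libraries labelled Tet3 KO against WT.

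Of 10 other NLRP genes with a row, 2 passed the filter: Nlrp2, which fell in LCD KO, and Nlrp5, which was at −0.19 ± 0.12 (adjusted p = 0.277 by edgeR). Of 12 other NOD-like receptor genes 3 were tested, and Naip1, a sensor of bacterial proteins in immune cells, rose by 1.25 ± 0.17 in LCD KO against WT, and also rose in HD mutant (1.04) and DKO (1.27) against WT and in DKO against Dnmt3a KO (1.12). Of 10 inflammasome genes 3 were tested in LCD KO: Nek7, a kinase that binds Nlrp3, was at 0.42 ± 0.16 (adjusted p = 0.0734 by edgeR), Txnip at 0.16 ± 0.18 and Casp1, the inflammasome protease, at −0.08 ± 0.45, and none passed. The summed level of the list was 295 to 624.7 CPM in LCD KO and 313 to 510.2 CPM in WT. Most of that sum was Txnip, with 252 to 613 CPM over all libraries, followed by Nek7 with 18.2 to 48.2 CPM. No other gene of the list exceeded 7.36 CPM in any library.

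Markers of the oocyte itself fell in LCD KO as well. Of 10 oocyte markers 5 fell and 0 rose, where 9.44% of all tested genes fell and 8.89% rose. Among the 5 were Mos (−0.77), a kinase of meiotic arrest, Figla (−0.68), a transcription factor of oocyte genes, and the zona pellucida genes Zp2 (−0.68) and Zp1 (−0.49). These calls too were not examined without batch 1 or without a batch term. Of 7 oocyte transcription factors tested Figla alone fell. In HD mutant against WT Figla (−0.72) and Zp2 (−0.93) fell, where 3.75% of all tested genes fell. The single theca and stroma marker tested, Dcn, rose by 2.08 in LCD KO, where the summed level of that list was 2.71 to 6.01 CPM in LCD KO and 1.03 to 2.51 CPM in WT. Col1a1 and Cyp17a1 had no count in LCD KO, and the part of such cells in the NLRP result was not tested.

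RefSeq promoters, from 250 bases before to 50 bases after the annotated start on GRCm38.p6, matched 8 of the 9 members with 10 entries in all. An E-box, CANNTG on either strand, occurred in 10 of 10, with 1 to 4 each, and in 72.3% of 32851 mouse promoters, so its presence is common. The pair CACATG and CAGCTG together, a combination searched after it was seen in Nlrp4a and Nlrp4b, occurred in the promoters of 3 members, Nlrp4a (second start), Nlrp4b and Nlrp4c, and in 2.29% of all promoters. The 2 entries of Nlrp4b overlap and hold the same pair, and the 3 genes are copies of each other. The homeobox motifs TAATTA and TAATTG occurred in 1 and 2 of the 10, and in 5.29% and 8% of all. CpG dinucleotides numbered 0 to 7 per member promoter, against a median of 7 over all promoters. DNA methylation was not analysed here.

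By gene order on GRCm38.p6, Nlrp9c, Nlrp4a and Nlrp9a are consecutive protein-coding genes on chromosome 7, Nlrp4e lies next to Nlrp5, and Nlrp4f lies on chromosome 13. In LCD KO the middle gene of that trio, Nlrp4a, fell by 0.53 on the log2 scale, against changes of −0.28 in Nlrp9a and −0.0039 in Nlrp9c, which did not pass. The difference between neighbours was not tested.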

How the data were processed

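Gene counts were deposited by the authors as 1 table of raw counts per gene. Per the submitters' processing notes, the tools were Trim Galore 0.5.0, HISAT2 2.1.0 and featureCounts 1.6.4, with genome build mm9. Sources used here do not give the annotation, the strand setting or the treatment of multiply aligned reads. The table held 24542 features, of which 92 ERCC spike-ins, with 1 count in all, were left out.

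From these counts, TMM factors and an edgeR 4.0.16 quasi-likelihood fit (limma 3.58.1, R 4.3.3) were computed over 22 libraries with a stated batch, with group and batch as terms and 14 residual degrees of freedom. Genes kept by filterByExpr numbered 11794, and p-values were adjusted over all of them. All groups shared the estimate of spread. The fit was tested on simulated counts. CPM use TMM factors, and log2 CPM for correlations a prior count of 2. Alternatives were DESeq2 1.42.0, RLE factors, no count filter, no batch term, single batches, a replicate block and leaving out each library. Same-group libraries differed beyond sampling noise (lowest chi-square per degree of freedom 3.36), except the identical pairs.

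Members, lists and tests were chosen with earlier results of these data known. All members are named, other lists by at most 4 called genes with the smallest p, and 5 genes by correlation. Nlrp5, Dcn, Nek7, Txnip and Casp1 were named after their values were seen. The files' build differs from the references, so sequences and gene order are from GRCm38.p6 and exon lengths from GENCODE vM21.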

Additional observations from a re-analysis of the deposited data

Results flagged for a closer look

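Nlrp9c stood at 1532 CPM in HD mutant 4 and at 1330 CPM in HD mutant 5, the 2 libraries with no stated batch, which entered no fit with a batch term. Both exceeded every WT library, of which the highest had 968 CPM, and both exceeded HD mutant 1 to 3, at 682, 462 and 401 CPM. Nlrp9a was also highest in HD mutant 4, at 504 CPM, against at most 426 CPM in WT. These libraries had the lowest totals of the series, 2242310 and 1838824 counts, and their batch and genotype cannot be told apart. Among 27 sets of gene and group with 4 to 10 libraries, 0 held a library that stood apart by Dixon's criterion.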

How the results depend on the processing

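Shares of all tested genes that passed follow each count in parentheses. In LCD KO against WT 5 members passed with DESeq2 (20.9%), RLE factors (18.4%), no count filter (12.4%) and batch 1 alone (30.3%). The count was 0 with no batch term (4.61%), the replicate block in place of batch (6.94%), batch 2 alone (0.0946%), batch 3 alone (0.789%) and batches 2 and 3 together (3.07%, added after seeing the data). Fewer libraries remained in the last 3, and the cause was otherwise not tested. Leaving out 1 library gave 4 to 6 members (14.3% to 19.6%; 4 without LCD KO 1, LCD KO 3, WT 1 or WT 2, and 6 without WT 4). Signs turned for Nlrp9c in batch 1 (0.17) and batch 2 (0.0076), for Nlrp4e (−0.039), Nlrp9a (0.20) and Nlrp9b (0.074) in batch 2, and for Nlrp4c in batch 3 (0.038). With 1 library left out Nlrp4e ran from −0.0053 to 0.15 and Nlrp9c from −0.044 to 0.059. In HD mutant against WT, no count filter gave 2 members (7.14%), no batch term 0 (3.09%), batch 2 alone 0 (0.315%), and leaving out 1 library 1 to 2 (3.27% to 9.46%). With HD mutant 4 and 5 added and no batch term Nlrp4a passed (3.42%). Signs turned for Nlrp4e without the filter (−0.0093), for Nlrp9a (−0.31) and Nlrp9c (−0.64) without a batch term, and for Nlrp4e (−0.068) and Nlrp9b (0.019) in batch 2. With 1 library left out Nlrp4e ran from −0.14 to 0.21, Nlrp9a from −0.042 to 0.38 and Nlrp9c from −0.13 to 0.28. The replicate numbers were not taken to pair the libraries: in batch 1, the sole set with 3 shared numbers, same-numbered LCD KO and WT libraries deviated with correlations of −0.017, −0.021 and −0.049. In batch 3 they were −0.32 for LCD KO 6 with WT 6, 0.27 for Dnmt3a KO with the libraries labelled Tet3 KO, 0.071 for DKO with these, and −0.0032 for DKO with Dnmt3a KO. The replicate block in place of batch gave 5 members in HD mutant against WT (29.5%), turning Nlrp4c (0.20), Nlrp9a (−0.38) and Nlrp9c (−0.92), and gave 2 in HD mutant against LCD KO (25.8%), 2 each against WT in Dnmt3a KO (12.2%), DKO (16.6%) and the libraries labelled Tet3 KO (9.86%), and 1 in DKO against LCD KO (13.5%). The replicate block beside the batch term, added later, gave 4 members in LCD KO (16.6%), turning Nlrp4e (−0.0022) and Nlrp9c (0.10), and 0 in HD mutant (1.87%), turning Nlrp4e (−0.86), and changed no other call count. Without TMM factors the summed members averaged 13073 CPM in WT, against 15325 CPM with them, and 9416 against 10088 CPM in LCD KO. In the libraries labelled Tet3 KO they averaged 10327 CPM without the factors, against 9104 CPM with them. The averages of HD mutant, Dnmt3a KO and DKO were also higher without the factors. Of the 5 genes most like Nlrp14, and of the 5 most like the mean, 0 remained without batch centring. Nlrp4c had the fewest counts of the members, 29 to 396 per library, which limits what its intervals can show.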
